A study of Mus musculus with 6 samples.

Results

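The 45 genes described here are type I interferon response genes, chosen by gene symbol as interferon-induced effectors and the STAT and IRF factors that regulate them. Of these, 42 had a row in the table of gene counts from mouse liver, and all 42 were among the 14681 genes tested of the 22183 in the table. Oas1b, Mx1 and Mx2 had no matched row and were not analysed here. The study sequenced liver mRNA of 6 samples, 3 labelled PBS and 3 labelled DOX. Both groups carried the genotype BucheKI/KI-Hep, which the series describes as an overexpression of Buche (butyrylcholinesterase, gene symbol Bche) in hepatocytes. Both groups had also received DDC, so the PBS controls share the knock-in and the DDC treatment with the DOX livers. In liver work DDC is commonly a porphyrin-raising chemical, given in feed, that damages bile ducts, and DOX doxycycline, a drug that switches on engineered genes. The labels expand neither name, nor the title prefix S2W, and the sources used here give no promoter for the knock-in and no age or sex of the mice. Whether each library stands for its own animal is not stated, so the p-values cover sample-to-sample spread, which may be technical.

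Type I interferons are secreted cytokines that bind the receptor pair IFNAR1 and IFNAR2 on nearly every cell type. The receptor-bound kinases JAK1 and TYK2 then phosphorylate STAT proteins, which join IRF9 to form the factor ISGF3, and ISGF3 binds the interferon-stimulated response element (ISRE) of its target genes. The targets encode proteins that sense foreign nucleic acid, block steps of viral replication, or feed back on the pathway itself. In liver, hepatocytes, Kupffer cells and endothelial cells can all respond to interferon.

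The response element can be read in the promoters themselves. RefSeq (GRCm38.p6) promoter windows, from 250 bases before to 50 bases from the annotated start, were at hand for 32 of the 42 genes, 38 windows in all because some genes have more than 1 start. The ISRE core GAAANNGAAA, searched on both strands with overlapping matches counted, was present in 15 of the 32 genes (46.9%), against 3.82% of the 11530 tested genes with a window. By window it was in 15 of 38, against 3.44% of all 32851. The stretches below are shown because they carry that core in genes of differing results. Some come from Isg15, Ifit1, Ifit3, Ifit3b and Rsad2, whose mRNA fell clearly in DOX livers. Another comes from Stat2, a subunit of the factor that reads the element. The rest come from Oas3, which did not pass the test, and Ifitm2, the only gene called higher. Each is printed 5′ to 3′ in the direction of its gene, with the core matches in capitals. A match on the opposite strand reads as its reverse complement.
Isg15: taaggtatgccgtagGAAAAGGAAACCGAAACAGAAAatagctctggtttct
Ifit1: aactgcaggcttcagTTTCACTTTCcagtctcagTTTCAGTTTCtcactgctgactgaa
Ifit3: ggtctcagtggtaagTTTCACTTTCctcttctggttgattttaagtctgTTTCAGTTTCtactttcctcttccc
Ifit3b: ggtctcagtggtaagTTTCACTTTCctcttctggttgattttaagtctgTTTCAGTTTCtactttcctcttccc
Rsad2: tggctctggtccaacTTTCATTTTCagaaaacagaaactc
Stat2: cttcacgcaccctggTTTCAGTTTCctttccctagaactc
Oas3: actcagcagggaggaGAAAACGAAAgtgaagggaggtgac
Ifitm2: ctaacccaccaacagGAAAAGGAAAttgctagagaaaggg
The Isg15 stretch (chr4:156200860-156200911, minus strand) holds 3 overlapping matches, the first at -78 from the RefSeq start. Ifit1 (chr19:34640770-34640828, plus strand), Ifit3 (chr19:34583358-34583431, plus strand) and Ifit3b (chr19:34607754-34607827, plus strand) hold 2 matches each, and the 74 bases shown for Ifit3 and Ifit3b are identical. Rsad2 (chr12:26456548-26456587, minus strand), Stat2 (chr10:128270261-128270300, plus strand), Oas3 (chr5:120777710-120777749, minus strand) and Ifitm2 (chr7:140955983-140956022, minus strand) hold 1 match each. These are letter matches in a fixed window, and binding was not measured.

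**Figure D1:**
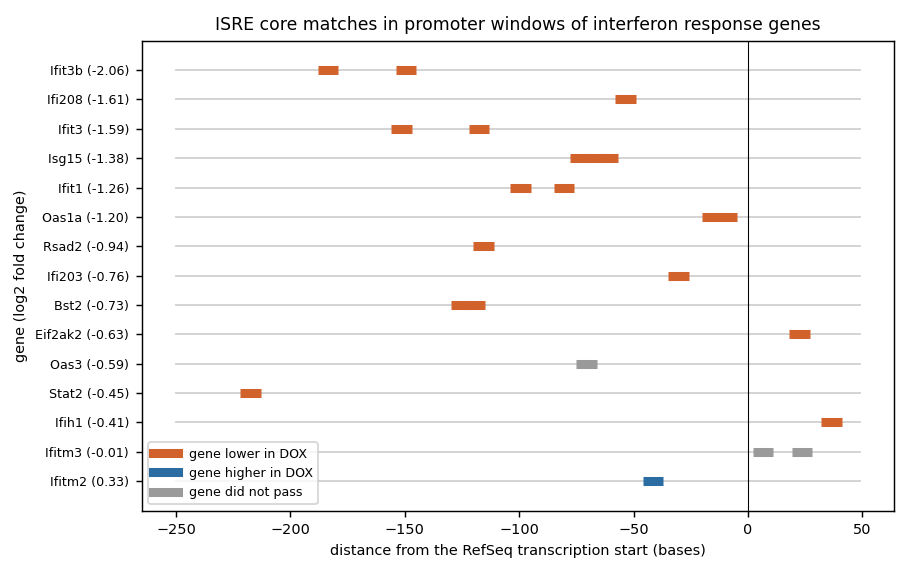
Positions of ISRE core matches in the promoter windows of the 15 interferon response genes that held one. The x axis gives the distance from the RefSeq start in bases, and each row is a gene with its log2 fold change, ordered from the largest fall. Matches upstream of the start lie in genes of every outcome, from Ifit3b (-2.06) to Ifitm2 (0.33).

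The comparison set DOX against PBS livers and asked, by the series' title and design text, what raised hepatocyte butyrylcholinesterase does in DDC-treated liver. Bche itself was measured at 177, 177 and 206 CPM (normalised read counts, brought to a common library size with TMM factors) in the PBS libraries and 1938, 1867 and 1763 CPM in the DOX libraries. An effect of raised Bche and an effect of the DOX agent cannot be told apart in this design. Library totals ranged from 32476725 to 41921404 counts. Mitochondrially encoded genes took 3.45 to 4.58% of counts in PBS and 5.11 to 6.81% in DOX libraries, and the part of that difference in the results below was not tested.

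Most of the interferon response genes were less abundant in DOX livers. Of the 42 tested, 33 fell and 1 rose at an adjusted p under 0.05 (edgeR's quasi-likelihood test, Benjamini-Hochberg adjustment over all genes), while 8 did not pass. The same test called 14.0% of all genes lower and 13.5% higher. The median log2 fold change of the 42 was -0.79, against -0.01 over all genes tested, and 41 of the 42 estimates were below 0. The largest falls were in the IFIT and OAS families, in the sensor Zbp1, and in Ifi27l2a, Ifi208, Ifi44 and Isg15. Among the 33 that fell, the change ran from -0.38 in Irf7 to -2.06 in Ifit3b, with a median of -0.88, and 12 fell by more than 1 on the log2 scale. In bulk tissue, fewer cells of a responding type and less RNA per cell cannot be told apart.

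All 3 DOX libraries lay below all 3 PBS libraries for 34 of the 42 genes and above them for 1. Over all genes tested these shares were 22.3% below and 21.8% above. Set against the PBS mean of each gene, the median log2 ratio over the 42 genes was -0.07, 0.11 and -0.11 in PBS 1, 2 and 3. In DOX 1, 2 and 3 it was -0.87, -0.69 and -0.88. PBS 2 was the highest of its group for 25 of the 42 genes and DOX 2 for 23, while DOX 3 was the lowest of its group for 25. The gap between the groups was thus wider than the spread within either group.

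**Figure D2:**
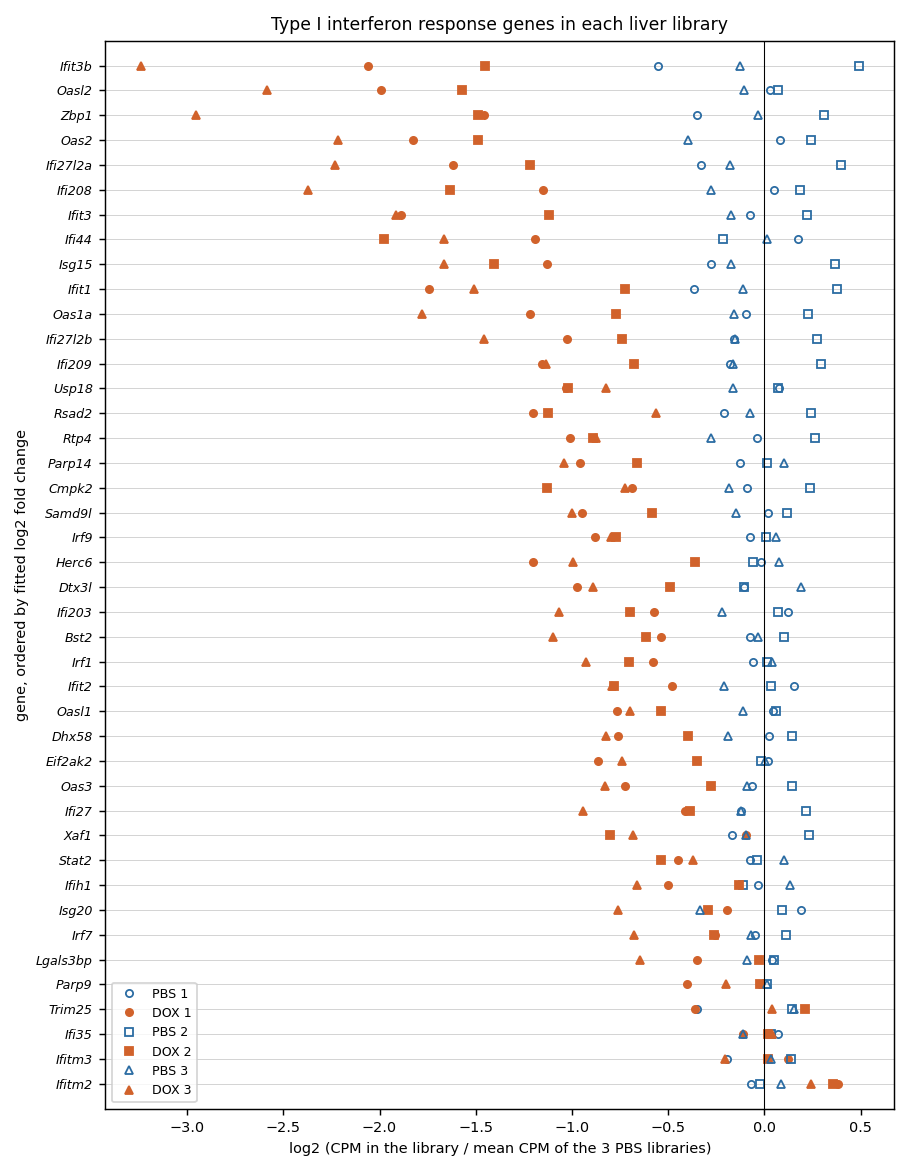
Level of each of the 42 interferon response genes in each library. The x axis gives the log2 ratio of the library's CPM to the mean CPM of the 3 PBS libraries, open blue symbols are PBS and filled orange symbols DOX, and genes are ordered by fitted log2 fold change. For 34 genes every orange symbol lies left of every blue one, and in the bottom row, Ifitm2, the order is the opposite.

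The 4 transcriptional regulators on the list all fell, with a median of -0.59. Irf9, the DNA-binding subunit of ISGF3, measured 24.4, 25.8 and 26.7 CPM in PBS and 13.9, 15.03 and 14.8 CPM in DOX samples. It fell by 0.81 on the log2 scale (SE 0.11, adjusted p = 0.000624), and the libraries within each group lay close together. Irf1, an interferon-inducible factor that binds related elements, measured 35.9, 37.7 and 38.4 CPM in PBS and 25.0, 22.9 and 19.6 CPM in DOX libraries. It changed by -0.73 (SE 0.11, adjusted p = 0.00134), again with no overlap of the groups. Stat2, a subunit of ISGF3, measured 34.4, 35.3 and 38.8 CPM in PBS and 26.5, 24.9 and 28.0 CPM in DOX samples, a smaller change of -0.45 (SE 0.10, adjusted p = 0.00887). Irf7, which drives further interferon transcription, measured 44.4, 49.6 and 43.7 CPM in PBS and 38.4, 38.3 and 28.7 CPM in DOX. Its change of -0.38 (SE 0.13, adjusted p = 0.0419) was the smallest fall called on the list, and DOX 3 was the low library. The Irf7 call was lost without PBS 1 (adjusted p = 0.0807), PBS 2 (0.142), PBS 3 (0.0732) or DOX 3 (0.146).

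All 4 nucleic acid sensors and kinases fell. Zbp1, a sensor of left-handed nucleic acid that can start necroptosis, was at 7.14, 11.2 and 8.88 CPM in PBS and 3.31, 3.24 and 1.17 CPM in DOX samples. Its change of -1.81 (SE 0.34, adjusted p = 0.00473) was far larger than those of the 3 genes beside it. Dhx58, which encodes the RNA helicase LGP2, changed by -0.65, Eif2ak2, the RNA-activated kinase PKR, by -0.63, and Ifih1, the RNA sensor MDA5, by -0.41. Eif2ak2 had an adjusted p of 0.00559. The other two lay nearer the threshold. Dhx58 (adjusted p = 0.0199) did not pass without PBS 1 (0.0563), PBS 2 (0.0805), DOX 1 (0.069) or DOX 3 (0.0694). Ifih1 (adjusted p = 0.0428) did not pass without PBS 1 (0.0872), PBS 2 (0.0637), PBS 3 (0.148), DOX 1 (0.122) or DOX 3 (0.159).

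The 3 PYHIN genes, a clustered family on chromosome 1 whose products bind nucleic acid in the nucleus and cytosol, also fell. Ifi209 was at 3.75, 5.20 and 3.79 CPM in PBS and 1.91, 2.65 and 1.94 CPM in DOX samples. It changed by -0.97 (SE 0.24, adjusted p = 0.0119), but not past the threshold without PBS 2 (0.0593). Ifi203 changed by -0.76 (adjusted p = 0.00667). Ifi208 was scarce, with 37, 41 and 29 reads in PBS and 14, 9 and 5 reads in DOX libraries. The Ifi208 change of -1.61 (SE 0.45, adjusted p = 0.0215) rests on those few reads, and it did not pass without PBS 1 (0.0606), PBS 2 (0.0767) or DOX 3 (0.0768).

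The 4 IFIT genes, which lie side by side on chromosome 19 between 34550550 and 34650009 (GRCm38.p6) and encode RNA-binding antiviral proteins, had the lowest median of any role, -1.42. Ifit3 measured 8.75, 10.7 and 8.17 CPM in PBS and 2.49, 4.24 and 2.44 CPM in DOX samples, a change of -1.59 (SE 0.23, adjusted p = 0.00092). Ifit3b measured 1.43, 2.94 and 1.92 CPM against 0.503, 0.766 and 0.222 CPM, a change of -2.06 (SE 0.44, adjusted p = 0.00624). These neighbours are near copies: 41.1% of the 75-base words of the longest Ifit3 transcript and 35.7% of those of Ifit3b recur in the other gene. How the authors' counting divided such reads is not known here, so the separate values of the pair are uncertain. Ifit1 measured 3.85, 6.46 and 4.59 CPM in PBS and 1.48, 3.01 and 1.75 CPM in DOX libraries and changed by -1.26 (SE 0.30, adjusted p = 0.01). In both groups its replicate 2 was the highest, without bringing the groups into overlap. Ifit2, with no 75-base word shared with another gene, showed a smaller change of -0.68 (adjusted p = 0.0115).

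Of the 5 measured OAS genes, 4 fell. OAS enzymes make short oligoadenylates that activate the nuclease RNase L, and the OASL proteins are their relatives. Oasl2 (chromosome 5, 114896926 to 114912245) was at 12.0, 12.4 and 11.0 CPM in PBS and 2.96, 3.98 and 1.97 CPM in DOX samples. Its change of -1.99 (SE 0.22) had the smallest adjusted p on the list, 0.000232. Oas2 was at 2.19, 2.44 and 1.57 CPM in PBS and 0.582, 0.737 and 0.444 CPM in DOX, a change of -1.81 (SE 0.34, adjusted p = 0.00333). Oas1a was at 4.38, 5.48 and 4.19 CPM in PBS and 2.01, 2.74 and 1.37 CPM in DOX, a change of -1.20 (SE 0.26, adjusted p = 0.0072). For Oas1a, 47.6% of the 75-base words recur in another gene, most often Oas1g, which makes its count uncertain. Oasl1, a translational inhibitor of Irf7, changed by -0.67 (adjusted p = 0.003). Oas3, the largest enzyme of the family, was at 2.05, 2.37 and 2.01 CPM in PBS and 1.30, 1.77 and 1.21 CPM in DOX libraries. Its groups did not overlap, yet the estimate of -0.59 (SE 0.27) did not pass (adjusted p = 0.127).

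Rsad2 and Cmpk2 are neighbours on chromosome 12, and both fell. Rsad2 encodes viperin, which converts CTP to a chain terminator of viral RNA synthesis, and Cmpk2 encodes a nucleotide kinase that supplies CTP. Rsad2 was at 7.44, 10.2 and 8.17 CPM in PBS and 3.73, 3.95 and 5.81 CPM in DOX samples (log2 fold change -0.94, adjusted p = 0.00707). Here DOX 3, the lowest DOX library for most of the list, was the highest of its group. Cmpk2 changed by -0.84 (adjusted p = 0.0154), and did not pass without PBS 2 (0.0722).

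Among ISG15 and the ubiquitin-type enzymes, 5 of 7 genes fell. Isg15, a ubiquitin-like modifier, measured 5.41, 8.44 and 5.81 CPM in PBS and 2.99, 2.48 and 2.06 CPM in DOX samples, a change of -1.38 (SE 0.23, adjusted p = 0.00199). Usp18, the protease that removes ISG15 and restrains the interferon receptor, changed by -0.96 (adjusted p = 0.0017). Herc6, a ligase for ISG15 in the mouse, changed by -0.81 (adjusted p = 0.0135), but not past the threshold without DOX 1 (0.0512) or DOX 3 (0.0547). Isg15 and both of these enzymes were lower in every DOX library than in any PBS library. The ADP-ribosyltransferase gene Parp14 changed by -0.88 (adjusted p = 0.000794) and the ubiquitin ligase gene Dtx3l by -0.77 (adjusted p = 0.00306). Trim25, a ubiquitin ligase of the RIG-I pathway, measured 60.6, 85.2 and 85.8 CPM in PBS and 60.0, 89.3 and 79.3 CPM in DOX libraries. The Trim25 groups overlapped throughout (log2 fold change -0.02, SE 0.17, adjusted p = 0.948), with replicate 1 the lowest in each.

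Dtx3l and Parp9 encode partners of a single ligase complex and share a bidirectional promoter region on chromosome 16, but they did not give the same result. Parp9 measured 42.6 ± 0.607 CPM in PBS and 37.1 ± 4.84 CPM in DOX samples (SD, n = 3 each) and its estimate of -0.20 did not pass (adjusted p = 0.208). Dtx3l measured 43.2 ± 5.33 CPM and 25.3 ± 4.69 CPM. The ratio of Dtx3l to Parp9 CPM was 0.956, 0.935 and 1.15 in PBS and 0.681, 0.732 and 0.628 in DOX libraries. The 2-sided exact permutation p of this ratio was 0.1, the smallest that 3 against 3 libraries can give, and the pair was chosen after its values were seen. Exons of these genes overlap by 458 bases on opposite strands in the GENCODE M21 annotation, and whether the counting used strand is not given in the sources used here.

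The 7 membrane proteins were the one role with calls in both directions, 5 lower and 1 higher. Ifi27l2a, of a family of small hydrophobic proteins, measured 8.20, 13.6 and 9.11 CPM in PBS and 3.36, 4.42 and 2.19 CPM in DOX samples, a change of -1.63 (SE 0.27, adjusted p = 0.00204). Its neighbour Ifi27l2b measured 52.9, 71.2 and 53.0 CPM in PBS and 29.0, 35.3 and 21.5 CPM in DOX, a change of -1.04 (SE 0.18, adjusted p = 0.00318). Ifi27, of the same cluster on chromosome 12, changed by -0.56 (adjusted p = 0.0217) and did not pass without PBS 2 (0.0884) or DOX 3 (0.0665). In all 3 genes of this cluster PBS 2 was the highest library and DOX 3 the lowest. Rtp4, a receptor transport protein, changed by -0.92 (adjusted p = 0.00242). Bst2, or tetherin, which holds budding virus at the cell surface, changed by -0.73 (adjusted p = 0.00379).

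The IFITM genes, whose products block the entry of viruses at membranes, did not fall. Ifitm2 measured 123.5, 127.1 and 137.6 CPM in PBS and 168.4, 165.4 and 152.9 CPM in DOX samples. Each DOX library exceeded each PBS library, and Ifitm2 was called higher at 0.33 (SE 0.10, adjusted p = 0.0352). The call is fragile: it was lost without PBS 1 (0.14), PBS 2 (0.115), PBS 3 (0.0552), DOX 1 (0.0944) or DOX 3 (0.0504). Of its 75-base words, 42% recur in another gene, most often Gm45717, so its count is uncertain as well. Ifitm3 measured 153.5, 193.0 and 179.6 CPM in PBS and 190.8, 177.6 and 152.3 CPM in DOX libraries, overlapping groups with an estimate of -0.01 (SE 0.13, adjusted p = 0.947).

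Of the remaining 6 interferon-induced genes, 2 fell. Ifi44, a cytoplasmic protein named for its induction by interferon, was at 1.70, 1.30 and 1.52 CPM in PBS and 0.662, 0.383 and 0.476 CPM in DOX samples, a change of -1.56 (SE 0.36, adjusted p = 0.00934). Samd9l, a translational repressor, changed by -0.83 (adjusted p = 0.00143). Xaf1, a promoter of apoptosis, had an estimate of -0.49 (adjusted p = 0.141), the RNA exonuclease gene Isg20 one of -0.39 (adjusted p = 0.3), and Lgals3bp, a secreted glycoprotein, one of -0.32 (adjusted p = 0.114). None of these 3 passed, although Lgals3bp did so without DOX 2 (0.00912). Ifi35 was at 20.7, 20.2 and 18.2 CPM in PBS and 18.2, 19.98 and 20.3 CPM in DOX libraries, with no separation of the groups (-0.02, SE 0.11, adjusted p = 0.93).

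**Figure D3:**
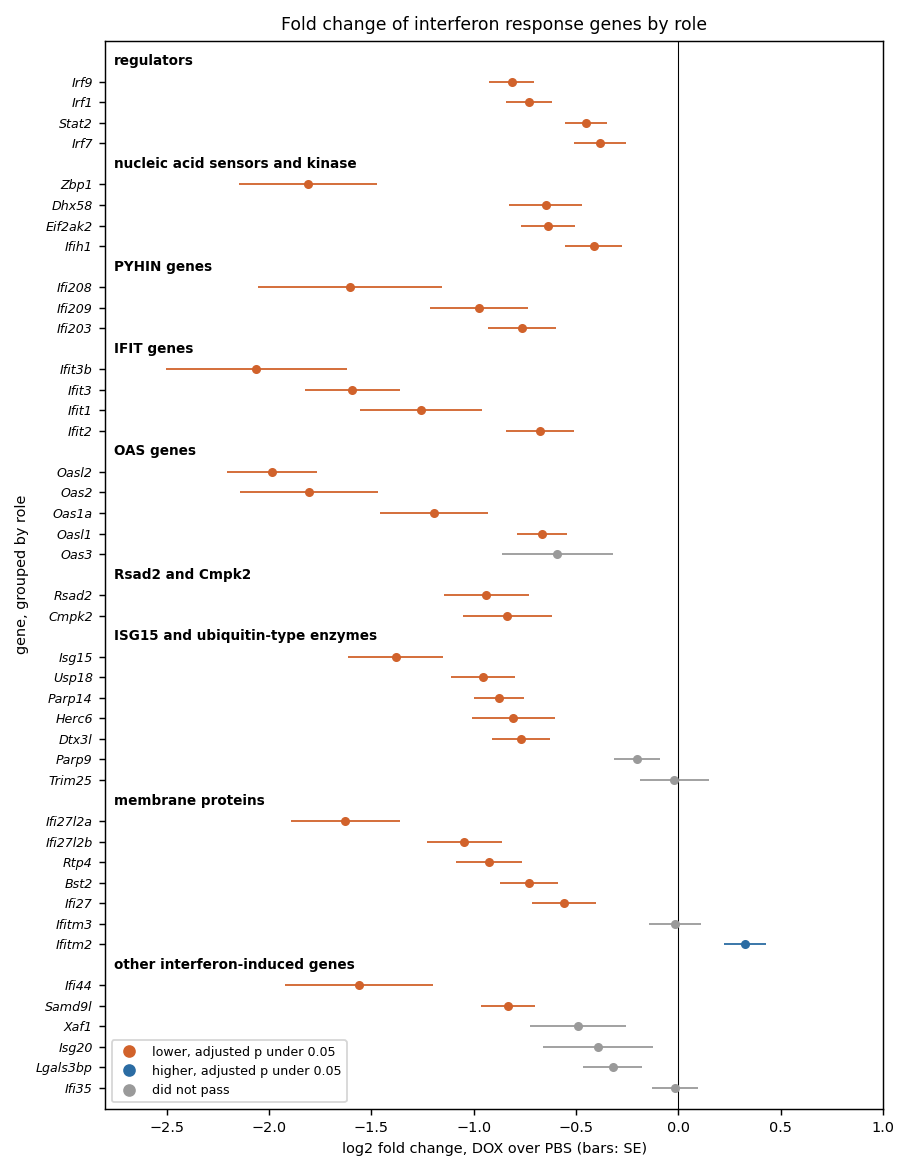
Log2 fold change, DOX over PBS, of the 42 interferon response genes grouped by role. Points are edgeR estimates, bars their SE over 3 libraries per group, and colours give the call. The 4 regulators, 4 sensors, 3 PYHIN and 4 IFIT genes all lie left of 0, and Ifitm2 at 0.33 is the one point called to the right.

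Levels per transcript length, in FPKM, differed by orders of magnitude across the list. In PBS livers the highest were Ifitm3 at 286 ± 34.3, Bst2 at 183 ± 15.3, Ifitm2 at 81.9 ± 2.46, Lgals3bp at 58.6 ± 4.91 and Ifi27l2b at 56.0 ± 11.3 FPKM (SD, n = 3). In DOX livers the same genes measured 253 ± 24.2, 98.8 ± 17.8, 92.1 ± 2.93, 41.9 ± 8.24 and 24.2 ± 5.45 FPKM. FPKM is scaled to library totals without TMM factors, which were 1.02 to 1.08 in PBS and 0.933 to 0.970 in DOX libraries. DOX levels relative to PBS therefore come out lower in FPKM than in the CPM behind the calls. Ifitm3, for one, averaged 175 CPM in PBS and 174 CPM in DOX libraries. Bst2 and Ifi27l2b fell among these abundant genes, while Ifitm3 and Lgals3bp did not pass. The lowest PBS levels were those of Ifi208 at 0.158 ± 0.0296, Oas3 at 0.461 ± 0.0537 and Oas2 at 0.537 ± 0.131 FPKM. Split at a mean of 8.78 CPM, 18 of the 21 less abundant genes fell, with a median of -1.20. Of the 21 more abundant genes, 15 fell and 1 rose, with a median of -0.63. Among all genes tested in the same ranges of CPM, 16.8% of the 4669 in the lower and 13.6% of the 8091 in the upper range fell, with medians of -0.13 and 0.02.

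Sequence copies and overlaps limit some of these counts. In 27 of the 42 genes no 75-base word of the longest transcript recurs in another gene, and 21 of the 27 fell, with a median of -0.68. In 8 genes over 10% of the words recur, namely Oas1a, Ifitm2, Ifit3, Ifit3b, Ifi209, Herc6, Ifi208 and Rtp4. Exons of 9 genes overlap a gene on the opposite strand: Dhx58, Dtx3l, Parp9, Eif2ak2, Ifi35, Irf1, Irf7, Oasl1 and Usp18. Of these 9, 7 fell. Exons of Herc6, Rtp4, Ifitm2, Irf9, Parp14 and Ifi203 overlap another annotated gene on the same strand, by 37 to 1269 bases. For Herc6, Rtp4 and Ifitm2, that overlapping gene is also the one that shares most of their recurring words.

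The promoter windows were read against these results. Among the 15 genes with an ISRE core, 12 fell and 1 rose, with a median of -0.76. Among the 17 without one in the window, 12 fell, with a median of -0.73. Of the 11498 tested genes with a window that were not on the list, 426 held the core, and 75 of them (17.6%) fell, with a median of -0.09. Of those without it, 14.1% fell, with a median of 0.00. The GAS core TTCNNNGAA, an element bound by STAT dimers, was in 8 of the 32 genes (25.0%), against 8.55% of tested genes with a window and 8.30% of all windows. Of those 8 genes, 5 fell, with a median of -0.66, and of the 24 without the GAS core 19 fell, with a median of -0.81. Among tested genes not on the list, 13.5% of those with the GAS core and 14.3% of those without it fell.

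Further genes known to respond to interferon, listed apart, also moved downward. Of 58 tested, 27 fell and 0 rose by edgeR, with a median of -0.41. At an unadjusted p under 0.05, 1 gene was higher, and DESeq2 called 0 higher. The shares over all genes tested were 14.0% lower and 13.5% higher, with a median of -0.01. The chemokine gene Cxcl10, which recruits T cells, fell from 9.53 ± 2.29 to 1.42 ± 0.359 CPM (-2.75, adjusted p = 8.08e-05). Uba7 and Ube2l6, the activating and conjugating enzymes for ISG15, changed by -1.11 and -1.01 (adjusted p = 0.000528 and 0.000814). Together with Isg15, Herc6 and Usp18, these 5 genes cover the modifier, its conjugation and its removal. Ms4a4c, a membrane protein of leukocytes, fell from 1.18 ± 0.304 to 0.115 ± 0.0187 CPM, a DOX level that rests on few reads. Leaving out PBS 2 or DOX 3 reduced the count of 27 to 17 in each case. Of 16 tested guanylate-binding and immunity-related GTPases, which attack intracellular pathogens, 9 fell and 0 rose, with a median of -0.68. Iigp1 fell from 143.9 ± 6.79 to 74.1 ± 16.7 CPM (-0.96), Gbp3 changed by -1.38, Gbp6 by -1.55 and Gbp2 by -0.74.

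Upstream of the response genes the results were mixed. Of 11 receptors, kinases and STATs tested, 3 fell and 1 rose, with a median of -0.01. Over all genes tested, 14.0% were called lower and 13.5% higher. Tyk2, the kinase bound to IFNAR1, fell from 30.5 ± 1.39 to 19.0 ± 2.41 CPM (-0.69). Neither receptor chain passed: Ifnar1 measured 56.7 ± 3.48 and 56.5 ± 3.35 CPM (adjusted p = 0.97) and Ifnar2 76.5 ± 1.81 and 80.2 ± 7.83 CPM (adjusted p = 0.659). For the interferon gamma receptor, Ifngr2 changed by -0.55 (adjusted p = 0.00246) and Ifngr1 by 0.31 (adjusted p = 0.047). The Ifngr1 call was lost without PBS 1 (0.139), PBS 2 (0.14), PBS 3 (0.0817), DOX 1 (0.114) or DOX 3 (0.161), and under library size alone (0.299), no filter (0.0679) and the replicate block (0.0823).

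Of 19 tested sensors and inducers of interferon, 6 fell and 3 rose, with a median of -0.28. The adaptor gene Traf6 rose from 21.6 ± 1.27 to 39.1 ± 3.99 CPM (0.85), while Sting1, the sensor of cyclic dinucleotides, fell from 11.3 ± 0.846 to 6.78 ± 0.745 CPM (-0.74) and Traf3 changed by -0.56. Tlr7, a receptor for single-stranded RNA, changed by 0.51, but did not pass without PBS 3 (0.0612) or DOX 3 (0.0606), or with library size alone (0.0825). Of 10 inhibitors of interferon signalling, 1 fell and 2 rose. These counts are near the shares over all genes (14.0% lower and 13.5% higher) and do not set the list apart. Ptpn6 changed by -0.46, lost without PBS 2 (0.0512) or DOX 3 (0.0525). Trim24 changed by 0.44, lost without PBS 2 (0.0586), PBS 3 (0.0553) or DOX 3 (0.0542) and with library size alone (0.0877). Pias1 changed by 0.37, lost without PBS 1 (0.0622), PBS 2 (0.106) or DOX 3 (0.0638) and with library size alone (0.15). Of 21 ligand genes looked for, 2 had a row. Ifnz had 1 read, in PBS 2, and Ifng 1 read each in DOX 1 and DOX 3, so no difference in ligand mRNA was detectable at this depth.

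**Figure D4:**
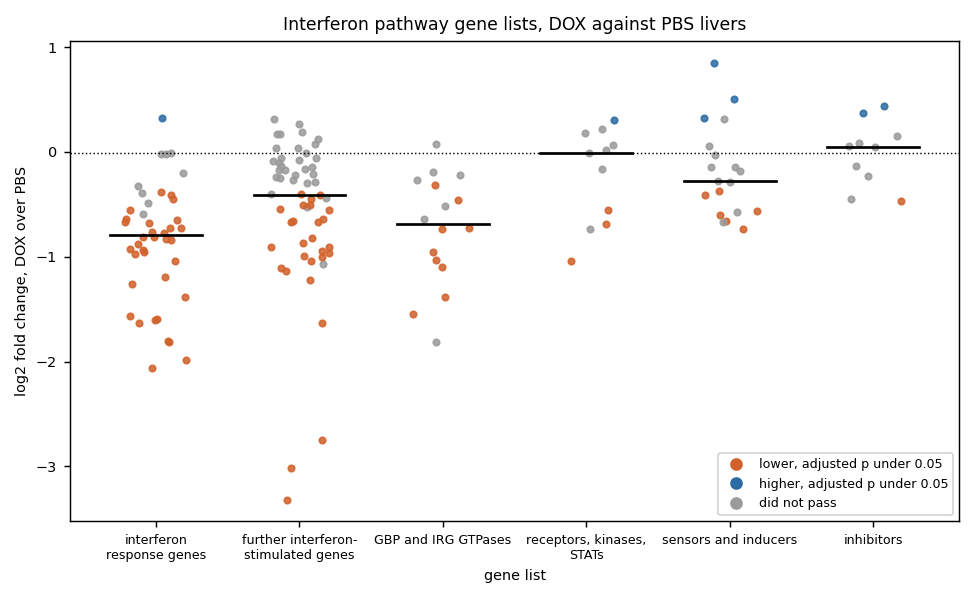
Log2 fold change, DOX over PBS, of the 42 interferon response genes and of 5 other lists of the pathway. Each point is a gene, coloured by its call, and the black bar is the median. The medians run from -0.79 and -0.68 for the response genes and the GTPases to -0.01 for receptors, kinases and STATs and 0.05 for inhibitors.

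Markers of the cell types that make or answer interferon moved with the groups in part. The summed level of 12 T and NK cell markers ranged from 7.03 to 9.67 CPM in PBS and from 2.60 to 5.10 CPM in DOX libraries, and none was at 0 in every library. Of the 11 tested, Nkg7 (-1.54) and Cd8b1 (-2.26) fell. Nkg7 did not pass without PBS 1 (0.0813), PBS 3 (0.0524), DOX 1 (0.0654) or DOX 2 (0.0512), and Cd8b1 did not pass with any 1 library left out (0.0574 to 0.13), with DESeq2 (0.059) or with the replicate block (0.0666). Siglech, the defining marker of plasmacytoid dendritic cells, a major source of type I interferon, had 17, 21 and 22 reads in PBS and 0, 2 and 0 in DOX libraries (adjusted p = 0.00405). It was the one gene called of 4 tested on a list of 9, whose sum, carried mainly by Tcf4, was 20.9 to 22.9 CPM in PBS and 20.2 to 20.6 CPM in DOX. Kupffer cell markers summed to 1363 to 1503 CPM in PBS and 1478 to 1660 CPM in DOX samples. Of these 11, 1 was lower (Cd5l) and 3 higher (Cd163, Vsig4 and Marco). The Cd5l call was lost without PBS 1 (0.0522), PBS 2 (0.0683) or DOX 3 (0.0627). Monocyte and macrophage markers, 2 lower and 3 higher of 11, summed to 1314 to 1442 and 1459 to 2184 CPM. Endothelial markers, 3 higher of 9, summed to 163 to 181 and 186 to 226 CPM. Hepatocyte markers, 6 higher of 12, summed to 96765 to 103863 and 101304 to 126595 CPM. Stellate cell and fibroblast markers, 6 lower of 9, summed to 1588 to 1927 and 931 to 1288 CPM. Bile duct markers, 2 lower of 6, summed to 756 to 915 CPM in PBS and 520 to 752 CPM in DOX, without overlap. Neutrophil markers, 3 lower and 3 higher of 9 tested, summed to 60.6 to 87.2 and 50.2 to 101.8 CPM. B and plasma cell markers, 1 lower of 2 tested, summed to 11.0 to 14.4 and 7.54 to 11.6 CPM. Calls counted here for Lyve1 (endothelial), Ms4a7 (macrophage), Ngp and Cxcr2 (neutrophil), Cd79b (B cell), and Hpd and Pck1 (hepatocyte) were also fragile. Each was lost with at least 1 of the libraries left out. For comparison with these marker counts, 14.0% of all genes tested were called lower and 13.5% higher. The part of any of these cell types in the fall of the interferon response genes was not tested.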

How the data were processed

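Per the labels' protocols, an RNeasy kit yielded the liver RNA and a SMARTER mRNA-seq kit the libraries. The authors deposited raw read counts per gene symbol for 6 libraries, and FPKM values for the same libraries. Dividing counts by FPKM and by the library total gave 1 fixed length per gene, so FPKM adds no measurement. The submitters' processing notes name GRCm38, mm10 and hg38 without saying what each was used for. The aligner, counting program, strand setting and annotation were not given in the sources used here. Samples were grouped by the labels (3 PBS, 3 DOX), and columns were matched to samples by title. There were 0 entries without a gene name.

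DOX was tested against PBS over the whole table with edgeR 4.0.16 in R 4.3.3 (filterByExpr with a minimum count of 10 and a minimum total of 15, TMM scaling, robust quasi-likelihood fit, group as the sole term). Benjamini-Hochberg adjustment ran over 14681 genes, and genes were called at an adjusted p under 0.05. CPM values use TMM-scaled totals. The genes and lists were chosen with earlier results of these data known. Values in every library are given for the 4 regulators, the 12 called genes of largest change with a mean of at least 1 CPM, any gene called against the majority, and the 3 of largest p. Of each other pathway list up to 4 called genes of smallest p were named. A gene that this rule names is not reported here, and most cell type markers that it names are given as counts and sums of their lists. Oas3, Rsad2, Ifi208, Parp9, Dtx3l, Ifnar1, Ifnar2 and Tcf4 were given values beyond that rule after their values were seen. Alternatives were DESeq2 (1.42.0), its size factors in edgeR, library size alone, no filter, a replicate block, and leaving out each library. Libraries of a group differed by more than sampling noise (chi-square per degree of freedom 30 to 83.9). The coefficient of variation between libraries of a group beyond sampling noise (edgeR's common estimate) was 0.155. The procedure was tested on simulated data, with 100 genes changed 2-fold and 100 changed 4-fold. It recovered 74% and 93% of them, and 9.24% of its calls were false, against the threshold of 0.05. Positions and promoters came from RefSeq GRCm38.p6, and shared 75-base words and exon overlaps from GENCODE M21, which may differ from the authors' annotation. In 31 of the 38 promoter windows, 30 bases after the start lay in a GENCODE transcript of the same gene.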

Additional observations from a re-analysis of the deposited data

How the results depend on the processing

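The 33 genes called lower stayed so with DESeq2, with its size factors in edgeR, with no filter and with library size alone, which added Parp9 (adjusted p = 0.0334) and Lgals3bp (0.02) for 35. Leaving out 1 library gave 26 (without PBS 2) to 34 (without DOX 2) lower. Of the 34 called genes, 25 kept their call under all 11 alternatives. Ifitm2 was called higher with DESeq2, its size factors and without DOX 2, so that 0 genes were called higher under library size alone, no filter and the replicate block, and 0 to 1 when 1 library was left out. Estimates near 0 changed sign when 1 library was left out: Ifi35 ranged from -0.069 to 0.030, Ifitm3 from -0.10 to 0.071 and Trim25 from -0.17 to 0.13. Of the further interferon-stimulated genes, leaving out 1 library gave 17 to 28 lower and 0 to 1 higher, and library size alone 34 lower. Over all genes, library size alone gave 3429 lower and 1028 higher, against 2062 and 1975, so 23.1% of calls were higher in place of 48.9%. That scaling moved the median of all genes to -0.16 and of the interferon response genes to -0.95. Leaving out 1 library gave 1305 (without PBS 2) to 2348 genes lower, with 1329 without DOX 3, and 1208 (without DOX 3) to 2440 higher, with 1233 without PBS 2 and 1229 without PBS 3. Deviations from the group means of same-numbered PBS and DOX libraries correlated at 0.133, -0.122 and -0.166. Not every library correlated best with its own number. With 3 libraries per group, these values cannot decide whether the numbers pair the samples. With a replicate block, 32 interferon response genes were lower and 0 higher, Ifih1 (adjusted p = 0.0579) and Ifitm2 (0.091) losing their calls, and 1849 genes were lower and 1633 higher over the table. The cause of these changes was not tested. Among the 42 interferon response genes, Ifi208 and Ifit3b, with DOX counts as low as 5 and 7 reads, are those most limited by depth.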
